A study of Homo sapiens with 15 samples.

Results

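The respiratory chain subunit genes described here are 59 nuclear genes chosen by symbol from the 26485 genes in the deposited count tables. They comprise 37 genes of complex I (symbols NDUFA, NDUFB, NDUFC, NDUFS or NDUFV followed by a number), the 4 genes of complex II (SDHA to SDHD), 8 genes of complex III and 10 genes of complex IV. All 59 passed the filter on low counts in every fit, and the lowest count of any of them in any library was 192, for NDUFA3. The choice used no measured value, although it was made with earlier results of these data known. The subunits encoded by mitochondrial DNA were not analysed here, and NDUFAB1, CYC1, CYCS and COX7A2L, which the symbols do not cover, are given apart from the members.

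The samples were 15 RNA-seq libraries of PSN-1, an established human cell line of pancreatic ductal adenocarcinoma, grown in RPMI medium with 10% fetal bovine serum and antibiotics and treated for 72 hours. In the first experiment cells received siRNA against MondoA (siMondoA), siRNA against its binding partner MLX (siMLX) or a control siRNA (siControl), with 3 libraries per group. In the second they received SBI-477, given in the labels as an inhibitor of MondoA, or its vehicle DMSO, again with 3 libraries per group. The siRNA sequences and the dose of SBI-477 are not given in the sources used here, and all libraries come from 1 cell line. Whether the replicates came from different cultures is not stated, and every p-value therefore rests on the library-to-library spread, part or all of which could be technical.

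The respiratory chain passes electrons taken from NADH by complex I, and from succinate by complex II, through ubiquinone to complex III and through cytochrome c to complex IV, which reduces oxygen. Complexes I, III and IV pump protons while they do so, whereas complex II, also an enzyme of the TCA cycle, does not. Nuclear respiratory factor 1, GABP and YY1, with coactivators of the PGC-1 family, are known activators of these nuclear genes, and MondoA with MLX is known for binding paired E-boxes at glucose-responsive genes such as TXNIP and ARRDC4.

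The siRNA libraries held between 11227343 and 14731691 counts and the drug libraries between 23315440 and 30480362. The targeted genes were lower in their libraries. MLXIP, which encodes MondoA, had 22.6, 23.4 and 15.7 CPM (counts scaled to a common library size with TMM factors) in siMondoA replicates 1 to 3, against 83.6, 65.8 and 88.6 CPM in siControl. MLX had 11.9, 7.15 and 7.69 CPM in siMLX, against 53.4, 58.8 and 53.0 CPM in siControl. All 8 markers of epithelial and pancreatic carcinoma cells averaged above 1 CPM in every group, led by KRT8. The fibroblast list summed to between 569.7 and 856 CPM in siMondoA, between 609 and 792 CPM in siMLX and between 545 and 705 CPM in siControl, with COL3A1 as its highest gene and THY1 at 0 in siMondoA and siControl. In the same groups the immune list summed to at most 101 CPM, with CD3E at 0, and the endothelial list to at most 38.2 CPM. The fibroblast list summed to between 161 and 284 CPM in SBI-477 and between 103 and 353 CPM in DMSO, and the immune list to at most 83.8 CPM in SBI-477 and 78.1 CPM in DMSO, with CD3E at 0 in both. Single markers moved both ways after siMondoA by edgeR. Of the epithelial list CDH1 rose by 2.38 on the log2 scale while CLDN4 and MUC1 fell by 1.31 and 0.67, and of the fibroblast list COL3A1 rose by 0.54 while PDGFRB fell by 1.93. Of the immune list CD68 rose by 1.06 while CSF1R and CD14 fell by 2.13 and 0.47, and of the endothelial list KDR rose by 0.94. The part of these markers in the results was not tested.

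Counts for the 59 genes made up between 0.610% and 1.02% of a library. Per kilobase of principal transcript, the highest siControl levels within each complex were those of NDUFS5 in complex I at 486 CPM per kb, SDHD in complex II at 137 CPM per kb, UQCRH in complex III at 754 CPM per kb and COX6A1 in complex IV at 372 CPM per kb. NDUFS5 is an accessory subunit on the intermembrane side of complex I, SDHD anchors complex II in the membrane, and UQCRH is the hinge protein that helps cytochrome c to bind. The lowest per kilobase were NDUFV3 at 8.17, SDHC at 12.8, UQCR10 at 43.4 and COX7B at 86.0 CPM per kb, of which SDHC has an annotated principal transcript of 13566 bases. The levels of the highest and the lowest member thus lay 59.6-fold apart in complex I and 4.32-fold apart in complex IV on this scale. It divides by the longest annotated principal transcript, which has 4676 bases for NDUFV3. By mean CPM in siControl, NDUFV3 stood at 38.2 CPM, above NDUFA3, the lowest member of complex I, at 32.0 CPM. The spread within siControl was small, with a median coefficient of variation over 3 libraries of 8.40% in complex I, 5.96% in complex II, 7.98% in complex III and 5.84% in complex IV. In DMSO the same medians were 27.8%, 11%, 20.8% and 27.9%, in libraries normalized separately from the siRNA libraries. There 1 library stood apart: DMSO replicate 2 held 10723 CPM summed over the 59 genes, against 7536 and 7222 CPM in replicates 1 and 3.

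Knockdown of MondoA lowered a few of these genes and left most without a call. Of 59 members, 8 were lower and 1 was higher in siMondoA than in siControl by edgeR's quasi-likelihood test (adjusted p under 0.05 over 13001 genes). The 8 lower members are 13.6% of the list, close to the 12.9% of all genes tested that were lower, and the 1 higher member is 1.69%, against 14.2% of all genes that were higher. In either direction 15.3% of the members were called, against 27.2% of all genes. The median log2 fold change was -0.11 over the members and 0.00 over all genes, and 44 members had a value below 0. In bulk RNA, fewer cells of a type and less RNA per cell cannot be told apart.

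**Figure D1:**
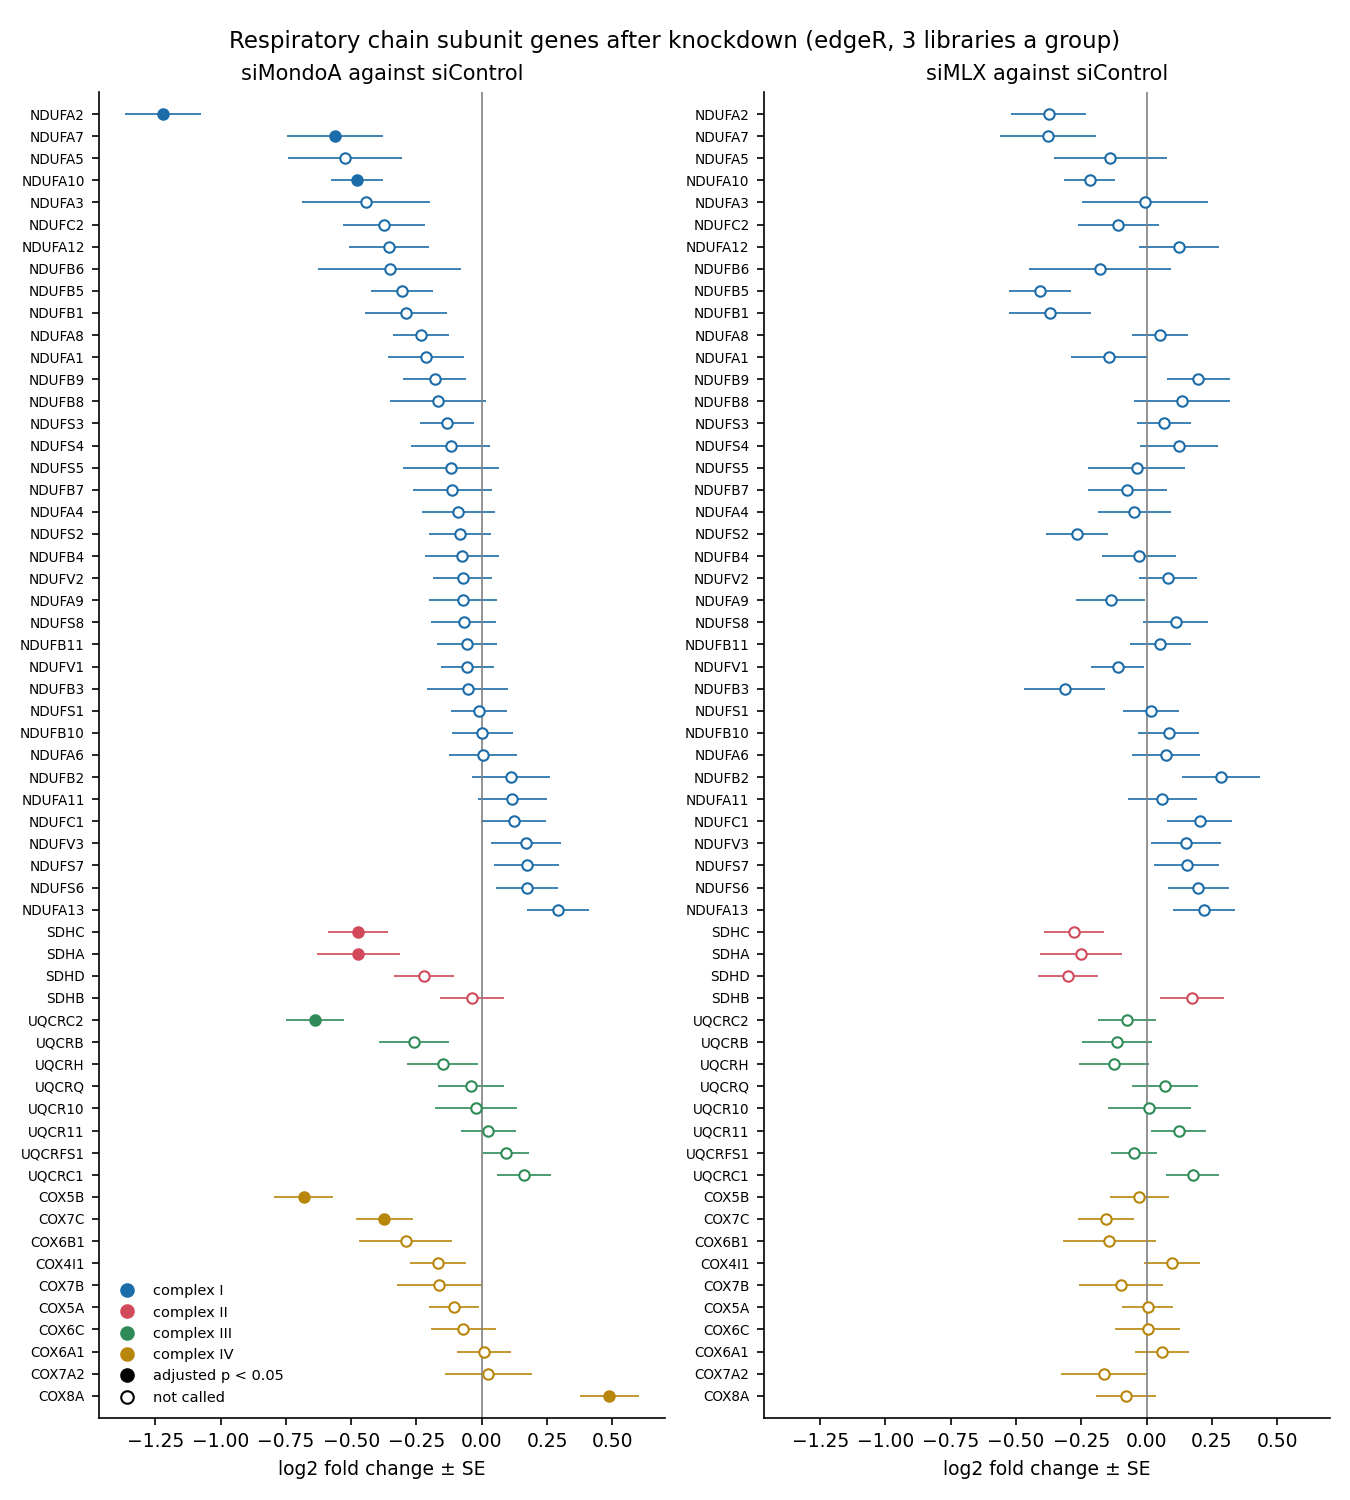
Log2 fold change with its standard error (edgeR) for each of the 59 genes in siMondoA (left) and siMLX (right), both against siControl, with 3 libraries a group, ordered by the siMondoA value within each complex; filled points had an adjusted p under 0.05. NDUFA2 lies farthest from 0 at -1.22 after siMondoA, COX8A is the 1 filled point above 0, and no point is filled after siMLX.

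The promoters of the members that the results turn on are printed first, from 250 bases before to 50 bases after the annotated start, so that they can be read beside the values. The first 4 belong to the members with the smallest adjusted p after siMondoA, all lower, and the fifth, COX8A, was added after its values were seen because it is the member that rose. Capitals mark matches to CCGGAAG, a sequence that ETS factors such as GABP are known to bind, on either strand. Sequences are from RefSeq (GRCh38.p14), 5′ to 3′ on the strand of the gene.
NDUFA2: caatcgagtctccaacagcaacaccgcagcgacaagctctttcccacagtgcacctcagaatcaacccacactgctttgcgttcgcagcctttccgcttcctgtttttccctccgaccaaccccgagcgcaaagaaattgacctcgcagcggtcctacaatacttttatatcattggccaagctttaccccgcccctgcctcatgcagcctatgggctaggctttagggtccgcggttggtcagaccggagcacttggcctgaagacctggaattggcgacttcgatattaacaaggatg
COX5B: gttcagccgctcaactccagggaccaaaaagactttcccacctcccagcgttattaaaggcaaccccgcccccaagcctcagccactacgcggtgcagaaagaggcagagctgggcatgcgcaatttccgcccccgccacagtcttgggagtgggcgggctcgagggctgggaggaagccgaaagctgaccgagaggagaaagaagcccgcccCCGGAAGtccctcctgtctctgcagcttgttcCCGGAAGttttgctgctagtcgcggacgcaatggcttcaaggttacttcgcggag
UQCRC2: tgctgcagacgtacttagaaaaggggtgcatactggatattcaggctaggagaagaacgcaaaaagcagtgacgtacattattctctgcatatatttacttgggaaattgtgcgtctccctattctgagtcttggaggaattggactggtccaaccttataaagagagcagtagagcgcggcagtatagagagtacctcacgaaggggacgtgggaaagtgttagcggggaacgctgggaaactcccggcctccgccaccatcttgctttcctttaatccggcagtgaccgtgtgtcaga
NDUFA10: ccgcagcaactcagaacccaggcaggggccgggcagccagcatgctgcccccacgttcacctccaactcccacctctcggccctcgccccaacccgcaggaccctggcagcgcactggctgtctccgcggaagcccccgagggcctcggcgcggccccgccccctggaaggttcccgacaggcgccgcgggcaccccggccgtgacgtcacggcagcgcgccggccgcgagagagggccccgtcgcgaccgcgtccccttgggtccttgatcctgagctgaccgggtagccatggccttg
COX8A: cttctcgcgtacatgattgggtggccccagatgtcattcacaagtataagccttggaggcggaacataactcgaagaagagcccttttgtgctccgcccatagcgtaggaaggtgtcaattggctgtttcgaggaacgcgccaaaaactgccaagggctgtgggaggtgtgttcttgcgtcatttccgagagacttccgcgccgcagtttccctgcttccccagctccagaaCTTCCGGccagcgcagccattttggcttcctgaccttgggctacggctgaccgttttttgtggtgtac
They lie at chr5:140647581-140647880 (minus strand, NDUFA2), chr2:97645812-97646111 (plus strand, COX5B), chr16:21953111-21953410 (plus strand, UQCRC2), chr2:240025293-240025592 (minus strand, NDUFA10) and chr11:63974370-63974669 (plus strand, COX8A). The COX5B window holds CCGGAAG with its first base at -37 and at -5 relative to the start, and the COX8A window holds it on the opposite strand at -18, as CTTCCGG. The NDUFA2, UQCRC2 and NDUFA10 windows hold none of the motifs searched.

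Matching promoters were found for 50 of the 59 members, and each motif was searched on both strands. The palindromic nuclear respiratory factor 1 motif was in 24.0% of the 50 windows, against 6.28% of all 27305 promoters of 300 bases. CCGGAAG was in 30.0% of the windows, against 10.7% of all promoters, and AANATGGCG, a YY1 sequence, in 30.0%, against 3.37%. The E-box CACGTG was in 8.0% of the windows (NDUFS7, UQCR11, NDUFA11 and NDUFA7), against 7.43% of all promoters. The paired E-box, 2 copies of CACGTG with 5 bases between them, which contains the single one, was in 0 of 50 windows and in 2 of the 27305 promoters. Only exact copies were searched, and a pattern this rare is hardly to be met in 50 windows. The 0 therefore does not say whether looser pairs, or binding of MondoA, are absent. Among the members called after siMondoA that have a promoter here, 1 of 8 held the nuclear respiratory factor 1 motif, 2 of 8 CCGGAAG, 1 of 8 the YY1 sequence and 1 of 8 the E-box. A match describes the letters in this window only.

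Complex I carried 3 of the calls among its 37 members, all lower (8.11%, against 12.9% of all genes). NDUFA2 (chr5:140638740-140647785, minus strand, GENCODE on GRCh38), a small accessory subunit of the NADH-oxidising arm, had 34.7, 25.1 and 28.6 CPM in siMondoA, against 71.4, 71.2 and 63.2 CPM in siControl. Every siMondoA library lay below every siControl library, and the log2 fold change was -1.22 ± 0.15 (SE; adjusted p = 0.00065, edgeR), the largest change among the 59, so that on the linear scale it fell by 57.1%. NDUFA2 shares 4.70% of its exon length with IK and 8.33% with TMCO6, both on the opposite strand, and no source used here says whether the counting took strand into account.

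NDUFA10 (chr2:239892450-240025402, minus strand), an accessory subunit of the membrane arm related to nucleoside kinases, had 82.1, 95.0 and 88.9 CPM in siMondoA, against 132, 121 and 117 CPM in siControl. The groups did not overlap, and it fell by 0.48 on the log2 scale (SE 0.10; adjusted p = 0.0078, edgeR). NDUFA7 (chr19:8308768-8321396, minus strand), an accessory subunit of the matrix arm, had 46.2, 27.1 and 39.6 CPM in siMondoA, against 61.7, 55.2 and 49.9 CPM in siControl. Its log2 fold change was -0.56 ± 0.18 (SE; adjusted p = 0.045, edgeR), the groups did not overlap, and replicate 2 was the lowest siMondoA library. That call was lost without siMondoA replicate 2 (adjusted p = 0.100) or 3 (0.089) and without siControl replicate 1 (0.141), 2 (0.107) or 3 (0.064), and also when scaled by library size only (0.0528), by the same edgeR test. NDUFA7 also shares 32.3% of its exon length with AC010323.1 on the same strand.

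The 7 core subunits of complex I are conserved proteins of the matrix arm that together hold the flavin and the iron-sulfur clusters. After siMondoA 0 of the 7 were called by edgeR, where 27.2% of all genes were. At an unadjusted p under 0.05 there were 0 of the 7, against 5385 of 13001 genes. The log2 fold changes of the 7 ran between -0.13 for NDUFS3 and 0.17 for NDUFS7. NDUFV1, the subunit that binds NADH, had 122, 116 and 126 CPM in siMondoA, against 139, 114 and 126 CPM in siControl, with overlapping groups. NDUFS1, the largest core subunit, had 165, 204 and 194 CPM in siMondoA, against 182, 194 and 191 CPM in siControl. The 27 accessory members without a call lay between -0.52 for NDUFA5, whose siMondoA libraries spread widely at 136, 71.2 and 102 CPM against 141, 157 and 146 CPM in siControl, and 0.29 for NDUFA13. NDUFA4, placed in complex I by its symbol but since assigned to complex IV, had 269, 204 and 225 CPM in siMondoA, against 244, 259 and 240 CPM in siControl.

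Among the accessory members nearest to the threshold, the values by library were uneven. NDUFB5 had 76.1, 67.4 and 75.4 CPM in siMondoA, against 94.8, 95.9 and 80.0 CPM in siControl, and NDUFA13, known also as GRIM-19, had 199, 179 and 193 CPM in siMondoA, against 175, 149.6 and 142 CPM in siControl. Their groups did not overlap, with log2 fold changes of -0.31 ± 0.12 (SE; adjusted p = 0.0779, edgeR) and 0.29 ± 0.12 (SE; adjusted p = 0.0894). NDUFA12, an accessory subunit of the matrix arm, had 45.4, 32.2 and 34.8 CPM in siMondoA, against 53.8, 46.8 and 43.5 CPM in siControl, and its log2 fold change was -0.36 (adjusted p = 0.105, edgeR). By mean CPM in siControl the most abundant member of complex I was NDUFS5, with 305, 179.8 and 253 CPM in siMondoA, against 255, 287 and 258 CPM in siControl, and the least abundant was NDUFA3, with 30.8, 15.2 and 24.4 CPM in siMondoA, against 40.8, 27.0 and 28.2 CPM in siControl. For both genes the groups overlapped.

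In complex II, 2 of the 4 members were lower (50%, against 12.9% of all genes), and the median over the 4 was -0.35. SDHC (chr1:161314257-161375340, plus strand), a membrane anchor that helps to bind ubiquinone, had 135, 110 and 129 CPM in siMondoA, against 182, 176 and 161 CPM in siControl. The groups did not overlap, and the log2 fold change was -0.47 ± 0.12 (SE; adjusted p = 0.015, edgeR). SDHA (chr5:218241-256700, plus strand), the catalytic flavoprotein, had 121, 90.5 and 102 CPM in siMondoA, against 164, 133 and 137 CPM in siControl. The groups did not overlap either, and it fell by 0.47 on the log2 scale (SE 0.16; adjusted p = 0.047, edgeR). SDHD, the other anchor, had 180, 148 and 180 CPM in siMondoA, against 195, 206 and 192 CPM in siControl, and SDHB, the iron-sulfur subunit, averaged 95.0 ± 14.9 CPM in siMondoA and 97.4 ± 5.47 CPM in siControl (SD, n = 3 each), both without a call. The SDHC call was lost without siControl replicate 1 (adjusted p = 0.056, edgeR) or 2 (0.054), and the SDHA call without any 1 of siMondoA replicates 2 and 3 and siControl replicates 1 to 3 (adjusted p between 0.079 and 0.161) and when scaled by library size only (adjusted p = 0.0515). SDHA has 3 and SDHC 4 named pseudogenes, whose reads 25-base sequencing may not tell apart.

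Complex III had 1 call among 8 members, lower in siMondoA (12.5%, against 12.9% of all genes). UQCRC2 (chr16:21952660-21983660, plus strand), a core protein needed for assembly of the complex, had 231, 191 and 226 CPM in siMondoA, against 330, 367 and 312 CPM in siControl. All siMondoA libraries were below all siControl libraries, and the log2 fold change was -0.64 ± 0.11 (SE; adjusted p = 0.0039, edgeR). Its partner core protein UQCRC1 had 304, 331 and 287 CPM in siMondoA, against 299, 267 and 259 CPM in siControl, with a log2 fold change of 0.16 that was not called. UQCRFS1, the Rieske iron-sulfur protein, averaged 219 ± 5.37 CPM in siMondoA and 205 ± 3.46 CPM in siControl (SD, n = 3 each), also without a call although its groups did not overlap. UQCRB, UQCRH, UQCRQ, UQCR10 and UQCR11, small subunits, lay between -0.26 and 0.03 on the log2 scale. The most abundant member of complex III by mean CPM in siControl, UQCRH, had 462, 365 and 404 CPM in siMondoA, against 439, 500.4 and 427 CPM in siControl. The least abundant, UQCR10, had 48.1, 31.9 and 37.4 CPM in siMondoA, against 45.5, 37.7 and 36.1 CPM in siControl.

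Complex IV had the 1 rise of the list beside 2 falls among its 10 members (10% and 20%, against 14.2% of all genes higher and 12.9% lower). COX5B (chr2:97646040-97648383, plus strand), a zinc-binding subunit on the matrix side, had 112, 89.4 and 106 CPM in siMondoA, against 164, 171 and 158 CPM in siControl. The groups were well apart, and the log2 fold change was -0.68 ± 0.11 (SE; adjusted p = 0.0029, edgeR). COX7C (chr5:86617904-86620962, plus strand), a small membrane subunit, had 284, 254 and 252 CPM in siMondoA, against 326, 363 and 332 CPM in siControl, with no overlap, and fell by 0.37 on the log2 scale (SE 0.11; adjusted p = 0.030, edgeR). That call was lost without any 1 of siMondoA replicates 2 and 3 and siControl replicates 1 to 3 (adjusted p between 0.062 and 0.108). COX8A (chr11:63974607-63976543, plus strand), another small membrane subunit, had 170, 171 and 157 CPM in siMondoA, against 135, 104 and 117 CPM in siControl. It was higher in every siMondoA library, with a log2 fold change of 0.49 ± 0.11 (SE; adjusted p = 0.012, edgeR), and the call was lost without siControl replicate 2 (adjusted p = 0.056). COX8A shares 34.5% of its exon length with AP000721.1 on the same strand, and COX5B has 6 named pseudogenes.

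The other members of complex IV were not called after siMondoA. COX4I1 and COX5A, nuclear-encoded subunits that join the core of the enzyme early in its assembly, had log2 fold changes of -0.17 and -0.11. COX6A1, COX6B1, COX6C, COX7A2 and COX7B lay between -0.29 and 0.03. COX7A2, the least abundant member of the complex by mean CPM in siControl, had 134, 102 and 106 CPM in siMondoA, against 112, 117 and 106 CPM in siControl, and its libraries overlapped.

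**Figure D2:**
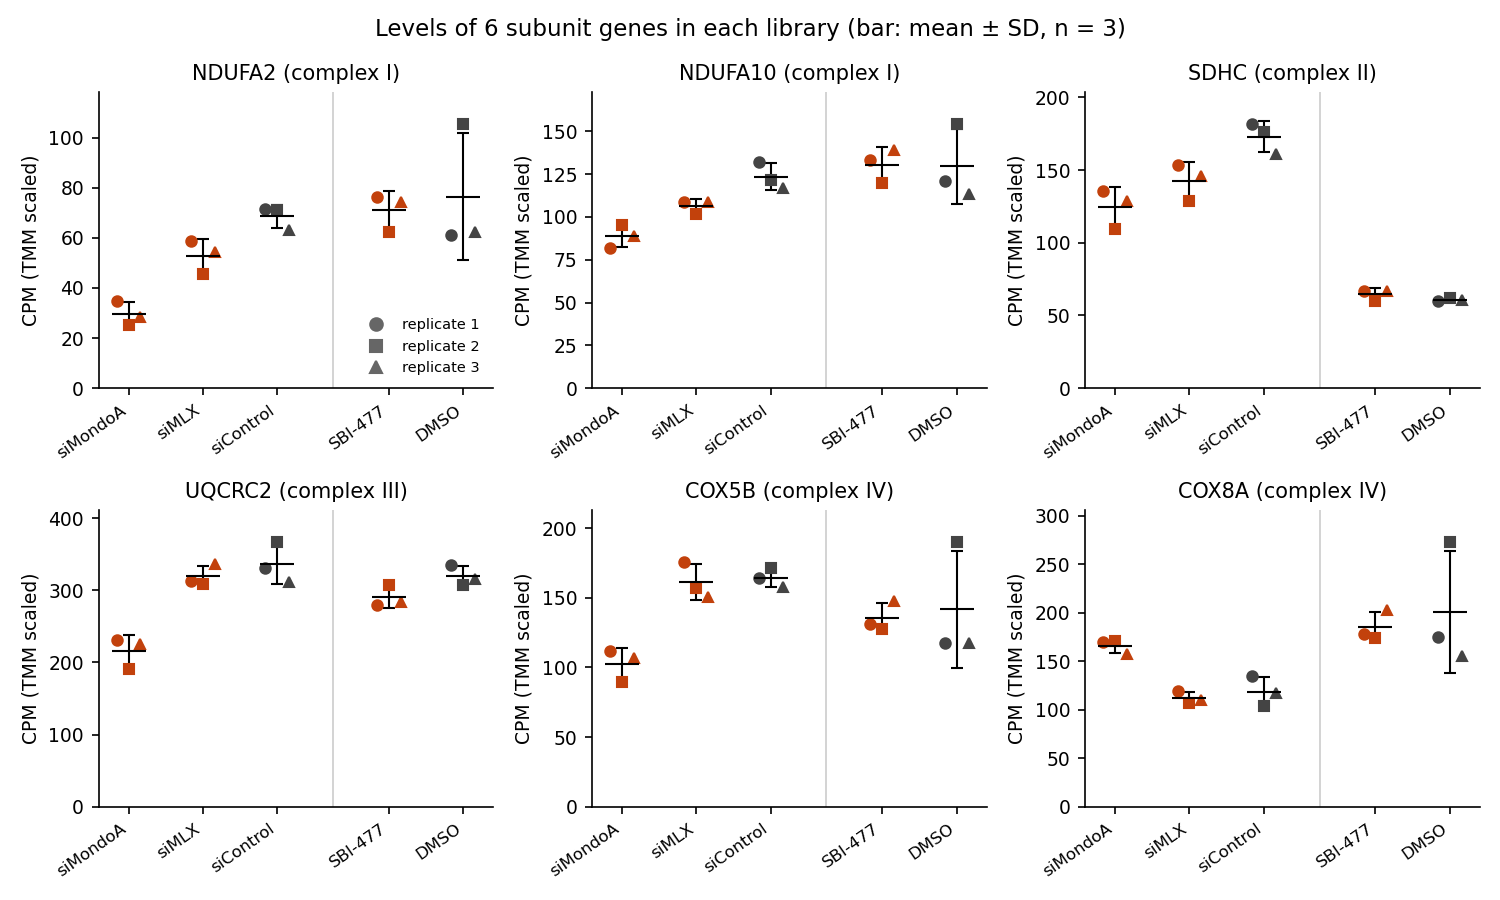
CPM (TMM scaled, linear axis starting at 0) of 6 subunit genes in each of 15 libraries; symbols are replicates and bars are the mean ± SD over 3 libraries, and the siRNA and drug experiments, on either side of the grey line, were scaled separately. The siMondoA libraries lie below the siControl libraries for NDUFA2, NDUFA10, SDHC, UQCRC2 and COX5B and above them for COX8A, while DMSO replicate 2 stands above the other drug libraries for NDUFA2, NDUFA10, COX5B and COX8A.

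The siMondoA libraries differed among themselves over the whole list. Summed over the 59 genes, siMondoA replicates 1 to 3 held 7746, 6455 and 7004 CPM, siMLX 8252, 6991 and 7588 CPM and siControl 8034, 8041 and 7420 CPM. Replicate 2 of siMondoA was the lowest of the 9 siRNA libraries for 32 of the 59 members (54.2%), against 21.1% of all genes tested. Relative to the siControl mean, the median member stood at 0.03, -0.31 and -0.12 (log2) in siMondoA replicates 1 to 3 and at 0.11, -0.12 and -0.02 in siMLX. A list of 16 genes of the integrated stress response, the program driven by ATF4, had a median of 1.74, 2.92 and 2.79 in the same siMondoA libraries, 0.18, 2.48 and 0.27 in siMLX and -0.06, 0.20 and -0.07 in siControl. Its part in the result was not tested. Groups did not overlap, with siMondoA lower, for 14 members (23.7%), against 22.7% of all genes, and with siMondoA higher for 4 members (6.78%), against 24.4%.

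**Figure D3:**
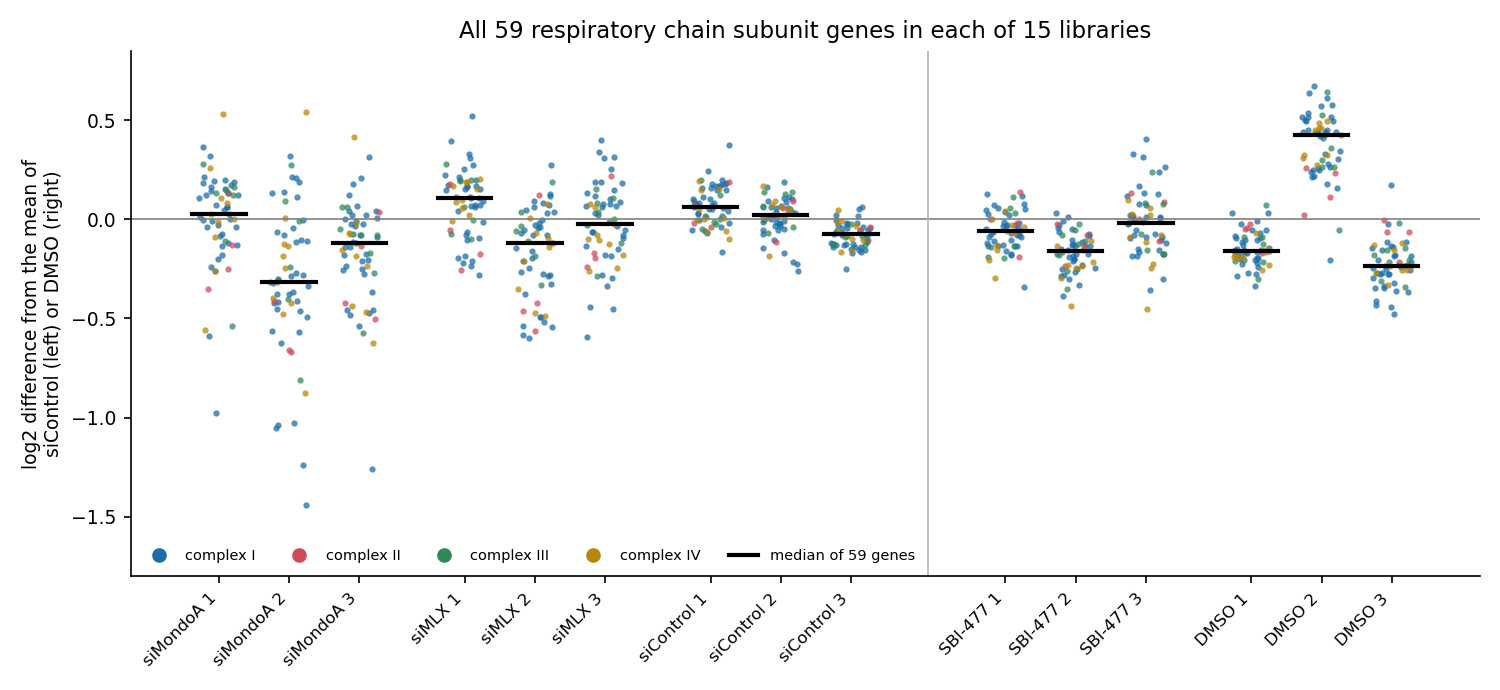
Log2 difference of each of the 59 genes in each library from the mean of siControl (siRNA libraries, left) or of DMSO (drug libraries, right); points are genes coloured by complex and black lines are medians. The medians of siMondoA replicates 1 to 3 are 0.03, -0.31 and -0.12, and DMSO replicate 2 stands out at 0.42.

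After knockdown of MLX no member passed the threshold in the fit without a block. By edgeR 0 of 59 were called after siMLX, where 8.41% of all genes were (3.72% higher and 4.69% lower). At an unadjusted p under 0.05 by edgeR there were 7 of the 59, against 3374 of 13001 genes, and DESeq2 called 1 member. The median over the members was -0.03 and over all genes 0.02, and 31 members lay below 0. The member with the smallest adjusted p was NDUFB5, an accessory subunit of the membrane arm, with 76.3, 61.6 and 66.2 CPM in siMLX, against 94.8, 95.9 and 80.0 CPM in siControl. Its siMLX libraries were all lower, with a log2 fold change of -0.41 ± 0.12 (SE; adjusted p = 0.061, edgeR). With the replicate number as a block, which may pair the libraries in this comparison, the value was -0.41 ± 0.11 (adjusted p = 0.037, edgeR). NDUFB5 is also the member that DESeq2 called. The comparison with siMLX shares its siControl libraries with that of siMondoA, so values are set side by side only.

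NDUFA2 had 58.8, 45.7 and 54.2 CPM in siMLX, below its siControl values but without a call (log2 fold change -0.37 ± 0.14; adjusted p = 0.13, edgeR). COX5B had 176, 157 and 151 CPM in siMLX and UQCRC2 313, 309 and 336 CPM, so that both overlapped siControl, and their log2 fold changes were -0.03 and -0.08. COX8A, with 119, 107 and 110 CPM in siMLX, was at -0.08. SDHC, SDHD and SDHA were at -0.28, -0.30 and -0.25, and SDHB was at 0.17, all without a call.

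Set directly against each other, the knockdowns differed for 4 members, 6.78% of the list, where 12.9% of all genes differed (6.66% higher and 6.21% lower in siMondoA). NDUFA2 was lower in siMondoA than in siMLX by 0.84 on the log2 scale (SE 0.15; adjusted p = 0.0062, edgeR). COX5B (-0.65 ± 0.11; adjusted p = 0.0063) and UQCRC2 (-0.56 ± 0.11; adjusted p = 0.011) were also lower in siMondoA, and COX8A was higher (0.57 ± 0.11; adjusted p = 0.012), all by edgeR. For each of these 4 the siMondoA and siMLX libraries do not overlap, as the values above show, and each call was kept under all 13 alternative settings, in which the adjusted p reached at most 0.049. NDUFA10, with 82.1, 95.0 and 88.9 CPM in siMondoA and 109, 101 and 109 CPM in siMLX, was at -0.26 ± 0.10 (adjusted p = 0.11, edgeR), so a difference between the knockdowns was not shown for it. For SDHC (-0.20), SDHA (-0.22), COX7C (-0.22) and NDUFA7 (-0.18) none was shown either.

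In the drug experiment as labelled, no gene passed the threshold with SBI-477. Of 59 members 0 were called by edgeR, where 0% of 14023 genes tested were, and 0 were called by DESeq2. At an unadjusted p under 0.05 by edgeR there was 1 member, against 409 of 14023 genes. The median member was at -0.11, against -0.01 over all genes, and 50 members lay below 0. The library labelled DMSO replicate 2 stood apart, as it was the highest of the 6 for 56 of 59 members (94.9%), against 28% of all genes tested. Summed over the members, the libraries labelled SBI-477 held 7961, 7417 and 8151 CPM and those labelled DMSO 7536, 10723 and 7222 CPM. The medians relative to the DMSO mean were -0.06, -0.16 and -0.02 in SBI-477 and -0.16, 0.42 and -0.23 in DMSO, and in DMSO replicate 2 the ATP synthase list stood at 0.38 and the mitochondrial ribosomal list at 0.32. TXNIP, the MondoA target, had 74.6, 121 and 41.5 CPM in the libraries labelled SBI-477, against 145, 39.2 and 204 CPM in those labelled DMSO, so that replicate 2 went against the order of replicates 1 and 3.

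The drug comparison was also made without replicate 2 of either group, because the authors' fold changes matched an exchange of those libraries, a choice made with the values of the members known. Leaving out the DMSO library that is highest for most members moves them upward in SBI-477 by construction. The counts, fold changes and adjusted p-values of members from this reduced fit are therefore given as descriptions. No rise with SBI-477 is read from them, and nothing is read from the counts against the shares over all genes. With replicates 1 and 3 alone, 10 members were higher in SBI-477 and 0 were lower by edgeR (16.9% of the members, against 9.07% of all genes higher, 9.02% lower and 18.1% in either direction). The median member was at 0.15, against -0.01 over all genes, and 48 members lay above 0. The calls were 7 of 37 in complex I (NDUFA2, NDUFA8, NDUFB2, NDUFB10, NDUFC2, NDUFS8 and NDUFV3), 3 of 8 in complex III (UQCRC1, UQCRQ and UQCR11) and 0 in complexes II and IV. The medians of complexes I to IV were 0.16, 0.14, 0.11 and 0.16, so no contrast between complexes is read from these counts. NDUFB10, an accessory subunit with cysteine motifs on the intermembrane side, had 128 and 146 CPM in SBI-477 replicates 1 and 3, against 100 and 88.4 CPM in DMSO. Its log2 fold change over replicates 1 and 3 was 0.54 (SE 0.10; adjusted p = 0.0086, edgeR). In the libraries of replicate 2 it had 107 CPM under SBI-477 and 183 CPM under DMSO.

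UQCRQ, a small subunit of complex III, had 149 and 137 CPM in SBI-477 replicates 1 and 3, against 112 and 109 CPM in DMSO, and 108 CPM under SBI-477 and 216 CPM under DMSO in replicate 2. Its log2 fold change over replicates 1 and 3 was 0.37 ± 0.09 (SE; adjusted p = 0.020, edgeR). NDUFA8, also of the intermembrane side, had 94.9 and 98.5 CPM in SBI-477, against 74.2 and 77.1 CPM in DMSO, a log2 fold change of 0.36 ± 0.09 (SE; adjusted p = 0.021, edgeR). Replicate 2 gave the opposite order for each of these genes. They were named from the fit that leaves replicate 2 out, and DMSO replicate 2 is highest for most members. Their order in replicate 2 therefore cannot decide on the labels. In this reduced comparison 11 members lay below 0 without a call, among them UQCRC2 at -0.21 ± 0.08 (SE; adjusted p = 0.103, edgeR).

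The other calls with replicates 1 and 3 were of similar size. NDUFC2, an accessory subunit of the membrane arm and the least abundant member of complex I in DMSO, had 15 and 19.1 CPM in SBI-477 replicates 1 and 3, against 12 and 12 CPM in DMSO, a log2 fold change of 0.51 ± 0.15 (SE; adjusted p = 0.042, edgeR). UQCRC1 had 411 and 466 CPM in SBI-477, against 343 and 354 CPM in DMSO, at 0.33 ± 0.09 (adjusted p = 0.0336, edgeR). NDUFA2, the member that fell most after siMondoA, had 76.4 and 74.5 CPM in SBI-477, against 61.2 and 62.5 CPM in DMSO. Its log2 fold change over replicates 1 and 3 was 0.29 (SE 0.08; adjusted p = 0.0432, edgeR). NDUFV3, NDUFB2, UQCR11 and NDUFS8 lay between 0.31 and 0.39 in the same fit. Of complex IV 0 of 10 were called by edgeR with 3 at an unadjusted p under 0.05, although its median was 0.16, as in complex I. Nearest to the threshold there was COX6B1, a subunit of the intermembrane side, at 0.25 (adjusted p = 0.0598, edgeR). With only the library labelled DMSO replicate 2 left out, 0 members were called by edgeR, and the median was 0.09. At an unadjusted p under 0.05 there were 12 members, and the share of all genes at that p was not computed.

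The authors' deposited table lists 22 members (37.3%) as higher with SBI-477 and 0 as lower (15 of complex I, 3 of complex III and 4 of complex IV). Of its genes with an adjusted p, 10.6% were higher, 9.51% lower and 20.1% either, and its median over the members is 0.32. The fold changes in the authors' deposited table were matched by a DESeq2 fit in which the libraries labelled DMSO replicate 2 and SBI-477 replicate 2 were exchanged, to a median absolute difference of 1.89e-07 over 13086 genes, against 0.196 with the labels as given. That exchange puts the library highest for 56 of 59 members in the SBI-477 group and moves them upward by construction. Nothing is therefore read from the 22 members against the shares over all genes. For the knockdowns, the authors' deposited table lists 1 member higher and 8 lower after siMondoA, where 12.2% of its genes are higher, 11% lower and 23.2% either. After siMLX the authors' deposited table lists 0 members, where 5.26% of its genes are higher, 6.48% lower and 11.7% either. Libraries are named here by their labels, and the median over the members is below 0 with all 6 libraries and above 0 with replicates 1 and 3.

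**Figure D4:**
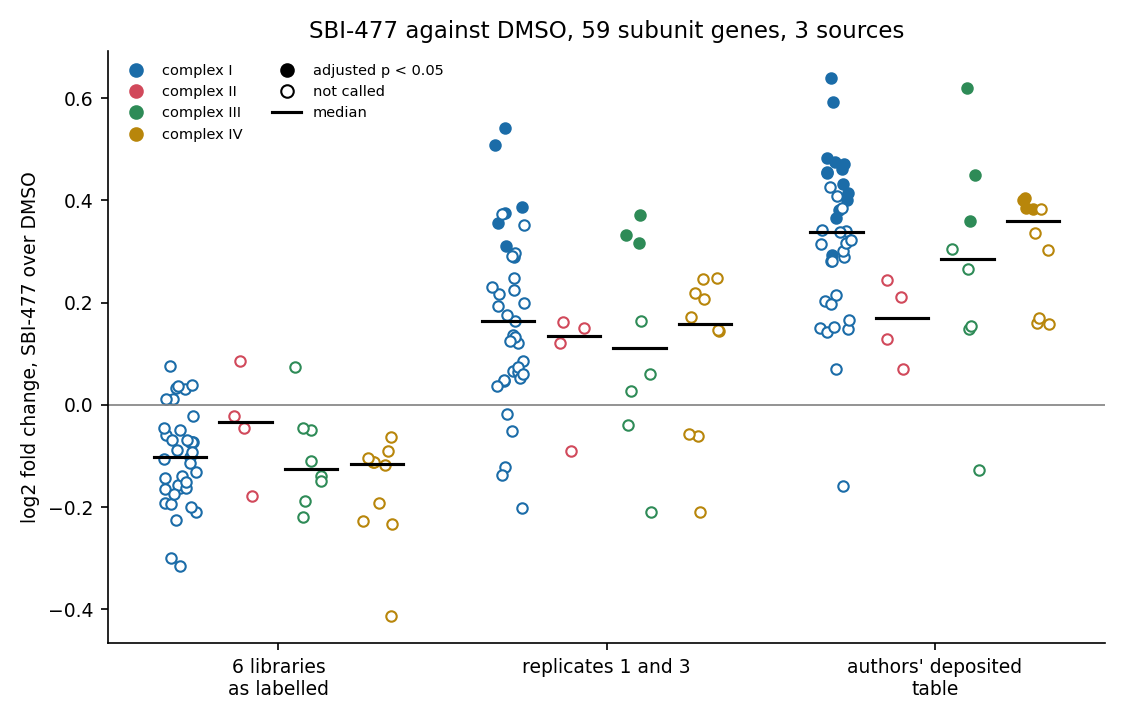
Log2 fold change, SBI-477 over DMSO, of each of the 59 genes by complex, from the 6 libraries as labelled, from replicates 1 and 3 only (both edgeR) and from the authors' deposited table; black lines are medians and filled points had an adjusted p under 0.05. No point is filled as labelled, 10 are filled above 0 with replicates 1 and 3, and 22 in the deposited table.

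The difference between the SBI-477 effect and the siMondoA effect was tested as an interaction over all 15 libraries as labelled. It was above 0 for 3 members and below 0 for 0 (5.08% of the list, where 7.67% of all genes were called, 3.84% above 0 and 3.83% below), with a median of 0.01. The difference was 1.13 ± 0.27 for NDUFA2 (SE; adjusted p = 0.024), 0.58 ± 0.15 for SDHC (adjusted p = 0.034) and 0.51 ± 0.15 for UQCRC2 (adjusted p = 0.047), all by edgeR. SDHC had 67.0, 59.9 and 66.8 CPM in SBI-477, against 59.9, 61.9 and 60.8 CPM in DMSO, with overlapping groups. The count was 0 without any 1 of SBI-477 replicates 1 and 3, DMSO replicate 1, siMondoA replicates 2 and 3 and siControl replicates 1 and 2, it was 1 without DMSO replicate 3, and it was 7 without DMSO replicate 2.

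Genes that work with these subunits changed in both directions after siMondoA, from lists chosen with earlier results known. CYC1, the cytochrome subunit of complex III that the symbol rule leaves out, had 275, 262 and 260 CPM in siMondoA, against 223, 197 and 217 CPM in siControl, and rose by 0.32 (SE 0.09; adjusted p = 0.030, edgeR). CYCS, COX7A2L and NDUFAB1, the other tested proteins of the chain, were at 0.14, 0.20 and -0.07 without a call. None of 16 ATP synthase genes was called by edgeR, where 27.2% of all genes were. At an unadjusted p under 0.05 there were 3 of the 16, against 5385 of 13001 genes, and the median of the 16 was -0.15.

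Among assembly factors, 2 of 6 for complex III fell after siMondoA (33.3%, against 12.9% of all genes). LYRM7, a chaperone for the Rieske protein, fell by 1.05 (SE 0.16; adjusted p = 0.0018, edgeR) and TTC19 by 0.62 (SE 0.14; adjusted p = 0.011, edgeR). LYRM7 had 34.0, 26.6 and 25.8 CPM in siMondoA, against 53.6, 61.1 and 64.8 CPM in siControl. For complex IV 4 of 22 rose (18.2%, against 14.2% of all genes), among them COA4, TACO1 and COA6, and 1 fell (4.55%, against 12.9% of all genes), COX15, which takes part in haem A synthesis. For complex I 1 of 14 rose (ECSIT) and 1 fell (NUBPL), each 7.14% of the list, against 14.2% and 12.9% of all genes. For complex II 0 of 4 were called by edgeR (against 27.2% of all genes), with 1 at an unadjusted p under 0.05 (against 5385 of 13001 genes).

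Of 12 regulators of respiratory genes, 3 rose after siMondoA (25%, against 14.2% of all genes) and 0 fell (against 12.9% of all genes). ESRRA, the oestrogen-related receptor alpha, had 104, 114 and 113 CPM in siMondoA, against 78.3, 74.8 and 74.9 CPM in siControl, a log2 fold change of 0.54 ± 0.09 (SE; adjusted p = 0.0031, edgeR). NRF1, nuclear respiratory factor 1, had 25.0, 31.0 and 23.8 CPM in siMondoA, against 15.1, 15.4 and 14.8 CPM in siControl, and rose by 0.82 (SE 0.15; adjusted p = 0.0040, edgeR). GABPB1, a subunit of GABP, had 40.5, 65.4 and 52.5 CPM in siMondoA, against 27.0, 26.5 and 26.8 CPM in siControl, and rose by 0.98 (SE 0.20; adjusted p = 0.0075, edgeR). PPARGC1A, the PGC-1 alpha coactivator, had 3.36, 0.874 and 1.92 CPM in siMondoA and 0.619, 0.154 and 0.305 CPM in siMLX, against 7.01, 3.72 and 3.65 CPM in siControl. Its counts were low, and by edgeR it was called after siMLX (adjusted p = 0.0057) and not after siMondoA (adjusted p = 0.074).

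In the same siMondoA comparison 4 of 77 mitochondrial ribosomal protein genes rose (5.19%, against 14.2% of all genes) and 6 fell (7.79%, against 12.9% of all genes), with MRPS16 at -0.69 and MRPL18 at 0.56. Of 13 TCA cycle enzymes 1 rose (7.69%, against 14.2% of all genes), OGDH at 0.53. In the same list 3 fell (23.1%, against 12.9% of all genes), SUCLG2 at -0.61, DLST at -0.37 and FH at -0.32. Of 9 mitochondrial chaperones and proteases 3 rose (33.3%, against 14.2% of all genes), HSPA9 at 0.57, LONP1 at 0.47 and YME1L1 at 0.28. Beside them rose 15 of 16 genes of the integrated stress response (93.8%, against 14.2% of all genes). After siMLX, citrate synthase (CS) fell by 0.67 on the log2 scale (SE 0.10; adjusted p = 0.0046, edgeR), the 1 call among the 13 TCA cycle enzymes (7.69%, against 4.69% of all genes lower). COX15 fell and UQCC2, an assembly factor of complex III, rose after siMLX, each the 1 call of its list. These are 4.55% and 16.7% of their lists, against 4.69% of all genes lower and 3.72% higher. In that comparison 3 of 77 mitochondrial ribosomal protein genes rose (3.9%, against 3.72% of all genes).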

How the data were processed

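RNA-seq of 15 PSN-1 libraries was deposited as 2 tables of raw counts per gene, made by the authors, with columns of their own comparisons, referred to as the authors' deposited table. A further 3 columns, the authors' mean counts over libraries, were not used. TopHat2 2.1.0, bcl2fastq 1.8.4, edgeR and HTSeq 0.6.1 are named as tools, and hg38 and mm10 as builds, per the submitters' processing notes. No source used here gives the strand setting of the counting. Reads of 25 bases limit how well pseudogenes are told apart, and 33 of the 59 members have named pseudogenes. From the authors' deposited table, log2 fold changes and adjusted p-values were used as given.

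Counts were filtered with filterByExpr, scaled by TMM and tested with edgeR 4.0.16 (quasi-likelihood, R 4.3.3), with Benjamini-Hochberg adjustment over all genes tested and a threshold of 0.05. The 9 siRNA libraries were fitted together, the 6 drug libraries together, and all 15 for the interaction. For the levels and for the fits within 1 experiment, the 2 experiments were normalized separately. For the interaction, all 15 libraries were filtered and normalized together. Levels by library relative to a group mean are log2 CPM with a prior count of 2. DESeq2 1.42.0, other scalings, no filter, a replicate block and leaving out each library were alternatives. The fits were tested on simulated data: for siMondoA against siControl, 29.9% of genes changed by 0.5 (log2) and 100% of those changed by 1 were recovered over 13001 genes. For SBI-477 against DMSO these shares were 20.9% and 95.5% over 14023 genes. The simulation gave every gene the same dispersion and held no library standing apart as DMSO replicate 2 does. These shares therefore do not say how many changes could be recovered from the real libraries.

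The members and the gene lists were chosen with earlier results of these data known. The rule for named genes was to give full statistics for members past the threshold in each comparison, at least 1 per complex, and of the other lists their counts with up to 4 called genes; other members named are described by role and were chosen after their values were seen. Positions and transcript lengths are from GENCODE 29 on GRCh38. Same-numbered siMLX and siControl libraries deviated together (r = 0.268, 0.188 and 0.359 for replicates 1 to 3, across genes). Differently numbered ones did not (r between -0.222 and -0.0361), so the numbers may pair them. Deviations from a mean of 3 libraries must favour some matching, so pairing was not established. For siMLX and siMondoA the values were 0.534, 0.447 and -0.109, so replicates 1 and 2 deviated together and replicate 3 did not. For siMondoA and siControl they were weak (0.136, 0.0881 and 0.0084), and pairing was not shown. For SBI-477 and DMSO they were negative (-0.243, -0.555 and -0.448). The authors' fold changes matched an exchange of the drug libraries of replicate 2, so these values cannot decide on pairing there. No 2 libraries of a group agreed within sampling noise (lowest chi-square per degree of freedom 8.40). The subunits encoded by mitochondrial DNA were not analysed here.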

Additional observations from a re-analysis of the deposited data

Results flagged for a closer look

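The SBI-477 effect and the siMondoA effect differed by an interaction term for 3 members, from the libraries as labelled. The difference (SBI-477 effect minus siMondoA effect, log2) was 1.13 for NDUFA2, which was at -0.10 with SBI-477 and at -1.22 with siMondoA. It was 0.58 for SDHC, at 0.09 with SBI-477 and -0.47 with siMondoA, and 0.51 for UQCRC2, at -0.14 with SBI-477 and -0.64 with siMondoA. NDUFA2 is at 0.47 in the authors' deposited table (adjusted p = 0.00741), and with replicates 1 and 3 of the drug groups it was at 0.29 (adjusted p = 0.0432, edgeR). Both depend on the library labelled DMSO replicate 2, where NDUFA2 had 106 CPM, against 61.2 and 62.5 CPM in DMSO replicates 1 and 3. Leaving that library out, or exchanging it, moves NDUFA2 upward by construction, so no rise is read from either value. With replicates 1 and 3, SDHC was at 0.15 and UQCRC2 at -0.21. The difference was then 1.53 for NDUFA2, 0.65 for SDHC and 0.45 for UQCRC2, the last without a call (adjusted p = 0.0795, edgeR). NDUFA2 kept the call in 12 of 19 alternative settings, SDHC in 10 and UQCRC2 in 3. The siRNA and drug experiments differ in depth as well as in treatment, and the part of that in these differences was not tested.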

How the results depend on the processing

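The count of members called after siMondoA lay between 4 and 11 when each library was left out in turn, and the calls of NDUFA2, COX5B, UQCRC2 and NDUFA10 were kept in all 13 alternatives. After siMLX the count was 1 with DESeq2 and 1 with the replicate block. For SBI-477 the count was 10 with replicates 1 and 3 only, where the median over members was 0.15, and that median lay between -0.22 and 0.091 when each library was left out in turn. The interaction gave 1 call with no filter on low counts, between 0 and 7 when each library was left out, and 6 with replicates 1 and 3 of the drug groups, where its median was 0.25. With the replicate block 13 members were called after siMondoA, gaining NDUFA12, NDUFA13, NDUFA3 and NDUFA5, although the numbers were not shown to pair those libraries, and 6 between siMondoA and siMLX. Counted over the calls alone, each under its alternatives, 174 values kept the call, 52 lost it and 0 reversed. Of members without a call, NDUFB5 passed after siMondoA with upper quartile factors, and NDUFA12 and NDUFA5 without siMondoA replicate 1. Between siMondoA and siMLX, NDUFA10 and NDUFB9 passed with upper quartile factors. NDUFA12 and NDUFB9 passed there with DESeq2, with the replicate block, without siMondoA replicate 1 and without siMLX replicate 2. In the interaction, NDUFA10 passed with upper quartile factors and with library size only. COX5B, NDUFA10, NDUFA7, NDUFA8 and NDUFC2 passed without DMSO replicate 2, and all of these but NDUFA7 with replicates 1 and 3 of the drug groups. Causes were not tested. The median standard error of a member was 0.12 (log2) for each knockdown and 0.18 for SBI-477, whose libraries are deeper, and pairs of libraries of a group differed by more than counting noise (chi-square per degree of freedom between 8.40 and 93.7).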
